A study of Mus musculus with 8 samples.

Results

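The genes described here encode the enzymes and membrane proteins of the lysosome, with a pair of transcription factors that act on such genes. They were taken by symbol from a fixed list of 47, and all 47 were found among the 25239 gene symbols of the count table. All 47 also passed the filter on low counts, and the lowest count of any of them in a library was 353, for Ctsf. The study sequenced polyadenylated RNA of primary cells that the labels call osteoblasts, isolated from mouse calvaria, the skull cap. There were 4 libraries labelled WT, described as littermate controls, and 4 labelled KO(OSX-SphK2), a knockout of the sphingosine kinase Sphk2 driven by Osx, which encodes a transcription factor of the osteoblast lineage. The labels number the libraries 1 to 4 in each group and give no age, no sex, no allele of the deletion and no count of animals per library, and p-values here therefore measure library-to-library spread, some of which may be technical.

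Total counts ran from 14347495 to 19065421 per library. Levels are given as CPM, read counts scaled to a common library size, and differences as log2 fold changes, labelled knockout over control. Sphk2 itself ranged from 64.2 to 133.4 CPM among controls and from 69.6 to 130.8 CPM among the knockout-labelled libraries, so its count does not check the genotype label, and every direction below is that of the labels. The markers go partly against the labelled cell type. The 20 macrophage and monocyte markers, none of them a lysosomal member, summed to 14951 to 18994 CPM. The 14 osteoblast markers summed to 4402 to 17301 CPM, mainly through collagen and other matrix genes. The late osteoblast genes Bglap, Bglap2, Dmp1 and Phex each had 0 counts in at least 1 library. The other markers of that list were counted in every library. Among them, Runx2 was at 18.3 to 49.9 CPM, Sp7 at 3.28 to 46.1 CPM and Alpl at 1.45 to 83.5 CPM. Knockout-labelled 1 stands apart in the late genes, with 42.3 CPM of Bglap, 40.7 of Bglap2, 13.7 of Dmp1 and 9.79 of Phex, where no other library reached 1 CPM. Ibsp, a bone matrix gene, was at 1081 CPM there against 0.65 to 49.1 CPM elsewhere. Without that library 0 members, and 0 of all 13001 genes tested, passed the genotype test described below. The members' median log2 fold change was then 0.09, against −0.007 over all genes. Both libraries numbered 4 stand apart through osteoclast markers, whose 10 genes summed to 10191 CPM (control) and 6733 CPM (labelled knockout) against 172 to 278 CPM elsewhere. In such bulk samples fewer cells of a type and less RNA per cell cannot be told apart.

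Lysosomes degrade proteins, glycans and lipids with acid hydrolases that reach them mostly through the mannose 6-phosphate receptors. Macrophages and osteoclasts are rich in them, and osteoclasts also release lysosomal proteases into the resorption pit. The transcription factors TFEB and TFE3 bind an E-box of the CLEAR type, centred on CACGTG, in many lysosomal promoters.

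RefSeq promoter windows on GRCm38.p6, reaching from 250 bases before to 50 bases after a gene's start, were found for 42 of the 47 genes. The 7 letters TCACGTG, searched on both strands and therefore also as CACGTGA, occurred in 11 of the 42 (26.2%), against 4.29% of all 27025 genes with a window. The shorter CACGTG, which every such match contains, occurred in 13 (31%), against 8.09% of all genes. The 8-letter palindrome TCACGTGA occurred in 4 (9.52%), against 1.12%. A second list of other lysosomal genes, described below, held TCACGTG in 10 of 36 (27.8%). It held CACGTG in 10 (27.8%) and TCACGTGA in 6 (16.7%), so these matches are not particular to the 47 genes. The stretches below show how the matches lie in 5 of the members, and the promoters of Lipa and Scarb2, which hold no match in their window, for contrast. Letters of a match are in capitals, each stretch reads 5′ to 3′ on the gene's strand, and base −1 is the last before the start.
Ctsd, −110 to −51, chr7:142387878-142387937, minus strand: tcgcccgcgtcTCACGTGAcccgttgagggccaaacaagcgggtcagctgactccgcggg
Mcoln1, −90 to −31, chr8:3500429-3500488, plus strand: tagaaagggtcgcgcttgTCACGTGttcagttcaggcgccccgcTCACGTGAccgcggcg
Lamp1, −75 to −1, chr8:13159086-13159160, plus strand: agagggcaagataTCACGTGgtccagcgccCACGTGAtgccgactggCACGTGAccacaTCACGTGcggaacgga
Gla, −240 to −181, chrX:134601186-134601245, minus strand: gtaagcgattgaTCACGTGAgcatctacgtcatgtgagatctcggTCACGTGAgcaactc
Sgsh, −60 to −1, chr11:119355511-119355570, minus strand: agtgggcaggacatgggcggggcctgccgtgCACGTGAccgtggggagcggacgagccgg
Lipa, −60 to −1, chr19:34527475-34527534, minus strand: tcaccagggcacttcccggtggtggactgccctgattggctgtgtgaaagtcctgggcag
Scarb2, −60 to −1, chr5:92505658-92505717, minus strand: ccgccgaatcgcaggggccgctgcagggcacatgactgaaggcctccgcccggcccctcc
Lamp1, which encodes an abundant glycoprotein of the lysosomal membrane, has 4 matches within the stretch shown, and the lysosomal calcium channel gene Mcoln1 has 2. A match is a run of letters and not a measured binding site.

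Lysosomal transcripts made up a large share of the RNA. The 47 genes summed to 5.19% to 9.20% of all counts in a library. Lyz2, the lysozyme of myeloid cells, held the largest part, and the other 46 genes summed to 3.43% to 5.90%. On the scale of CPM per kb of the principal transcript, which allows levels of different genes to be compared, Lyz2 stood at 16669 ± 4421 (SD, n = 8). It was followed by Ctsd, the aspartic protease cathepsin D, at 3494 ± 648 (SD, n = 8), and Psap, the precursor of the saposins that present sphingolipids to their hydrolases, at 2319 ± 985 (SD, n = 8). Each of these 3 was above the next gene in the order in 8 of 8 libraries. Ctss, the cathepsin of antigen-presenting cells, came next at 1586 ± 476 (SD, n = 8) and was above the glycoprotein gene Gpnmb, at 1402 ± 325 (SD, n = 8), in 7 of 8. Gpnmb was above Ctsb, the cysteine protease cathepsin B, in 5 of 8 libraries, and Ctsb, at 1162 ± 240 (SD, n = 8), was above Lamp1 in 4 of 8, so the order of these neighbours is not settled by the libraries.

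**Figure D1:**
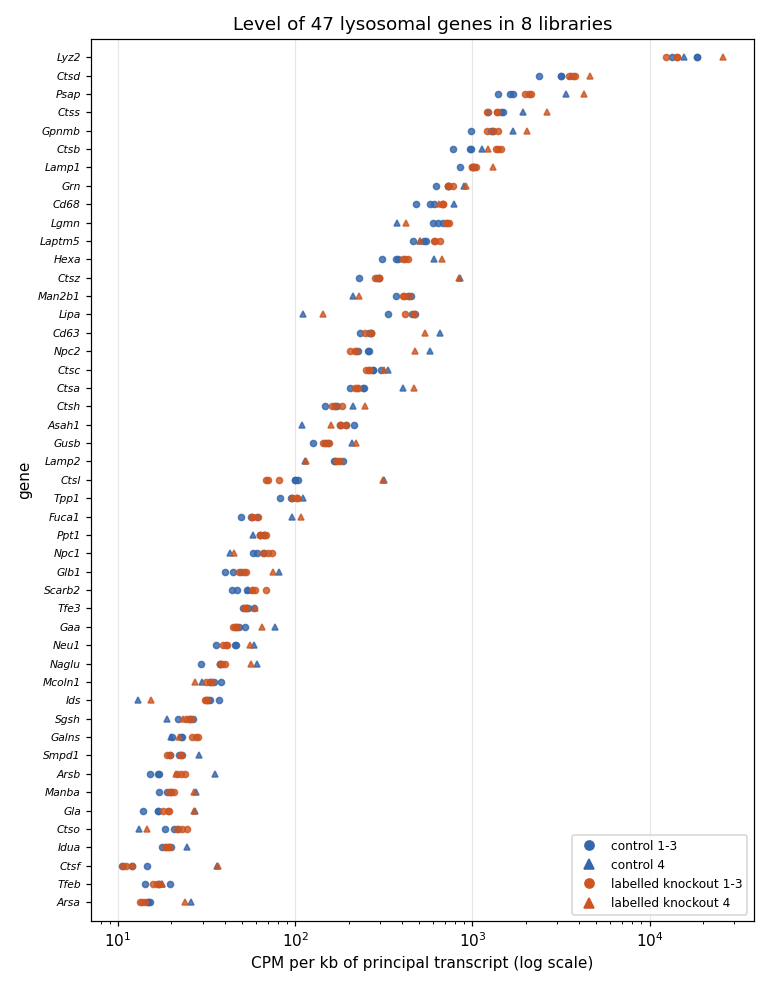
Level of each of the 47 lysosomal genes in CPM per kb of principal transcript (log scale), 1 point per library, controls in blue and libraries labelled knockout in orange, with triangles for number 4. Lyz2 lies highest at a mean of 16669, Arsa and Tfeb lowest at 16.9 each, and the triangles of Ctsl, Ctsz and Ctsf lie to the right of all circles.

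At the other end of the order stood the factor gene Tfeb at 16.9 ± 1.60 CPM per kb (SD, n = 8), next to Arsa, the sulfatase of sulfatide, at 16.9 ± 4.95 (SD, n = 8). The sulfatase and glycosidase genes were mostly low. The hexosaminidase subunit gene Hexa, at 450.0 ± 125.8 CPM per kb (SD, n = 8), and the alpha-mannosidase gene Man2b1, at 369 ± 95.4 (SD, n = 8), were the highest of the 16. Ppt1, a palmitoyl-protein thioesterase, and Tfe3 were the steadiest in kind, with ranges of 138.4 to 162 CPM and 167 to 194 CPM over the 8 libraries.

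The comparison of genotypes asks whether the lysosomal genes differ between the labelled knockout and its controls. With edgeR's quasi-likelihood test of genotype alone, 0 of 47 rose and 0 fell at a Benjamini-Hochberg adjusted p of at most 0.05, as did 0 (0% in each direction) of the 12837 genes tested. At an unadjusted p of at most 0.05 there were 3 higher members, Ctsb, Galns and Scarb2, and 0 lower, against 3.19% higher and 1.72% lower of all genes. DESeq2 also called 0 members, against 1.05% higher and 0.405% lower of its genes, and so did edgeR with the library number as a block, against 1.31% and 1.18%. The smallest edgeR adjusted p among members was 0.735 without and 0.0668 with the block. By DESeq2 the smallest was 0.0518, for Ctsb. With the block, 11 members were higher at an unadjusted p of at most 0.05 (11.1% of all genes were) and 2 lower (9.78% of all genes). In all 4 numbered pairs 13 members were higher, against 15.4% of all genes, and 7 lower, against 13.3%. Of the 47 log2 fold changes 33 were positive (70.2%, against 46.7% of all genes), with a median of 0.07 against −0.02 over all genes. That median was 0.19 without control 4, with 35 of 47 positive against 52.8% of all genes. It was 0.02 without control 2 (27 positive, 48.8% of all genes) and −0.01 without knockout-labelled 4 (23 positive, 45.6%). The median SE of a member was 0.21 without the block and 0.07 with it, beside a median absolute difference of 0.11 in both.

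Among the 12 peptidase genes, Ctsb on chromosome 14 of GRCm38 (63122462 to 63145923, plus strand) showed the largest positive difference. Controls 1 to 4 gave 4673, 3683, 4578 and 5400 CPM, and knockout-labelled 1 to 4 gave 6894, 6456, 6625 and 5795 CPM. Every library labelled knockout lay above every control, by little between the libraries numbered 4. Groups that did not overlap, with the labelled knockout higher, were found for Ctsb and Scarb2 among members and for 2.33% of all genes. The reverse order was found for 0 members and 1.29% of all genes. The log2 fold change of Ctsb was 0.49 ± 0.16 (SE) with a 95% interval of 0.13 to 0.86. The adjusted p was 0.735 by edgeR and 0.0518 by DESeq2. An exact permutation test of log2 CPM, two-sided, gave p = 0.0286, the smallest that 4 against 4 libraries allow. Every gene whose groups do not overlap reaches that value, so it adds nothing to the order given above.

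Ctsd stood at 6728, 5045, 6748 and 7624 CPM in controls, in the order of their numbers, and 8107, 7475, 7860 and 9874 CPM in knockout-labelled libraries. Control 4 lay above knockout-labelled 2, so the groups overlapped, though all 4 same-numbered differences were positive. Its log2 fold change was 0.35 ± 0.18 (SE). Ctsc, which encodes the dipeptidyl peptidase that activates granule proteases, lay the other way in all 4 numbered pairs, at 757, 686, 682 and 837 CPM in controls and 653, 652, 624 and 786 CPM in knockout-labelled libraries. Its log2 fold change was −0.13 ± 0.14 (SE), and control and knockout-labelled ranges overlapped.

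Of the 16 glycosidase and sulfatase genes, 11 had positive differences, with a median log2 fold change of 0.07. Galns, the sulfatase of keratan sulfate and chondroitin 6-sulfate, stood at 58.9, 51.6, 57.9 and 51.2 CPM in controls and 72.0, 67.3, 70.9 and 56.4 CPM in knockout-labelled libraries. Only knockout-labelled 4 lay within the control range. This is a log2 fold change of 0.28 ± 0.11 (SE) and an edgeR adjusted p of 0.977. The acid alpha-glucosidase gene Gaa ranged from 168 to 281 CPM among controls and from 161 to 237 CPM among the others, with a log2 fold change of −0.15 and an SE of 0.21. Idua, the iduronidase of heparan and dermatan sulfate, was at 62.4 to 86.9 CPM and 64.8 to 69.9 CPM, with −0.08 and an SE of 0.12.

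Of the 7 genes of lipid hydrolases, activators and sterol carriers, Psap had the largest positive difference. It stood at 4345, 3686, 4531 and 8957 CPM in controls and 5560, 5236, 5667 and 11313 CPM in knockout-labelled libraries. Each library labelled knockout lay above the control of its number, but the groups overlapped because both libraries numbered 4 were high. Its log2 fold change was 0.37 ± 0.37 (SE), and 0.38 ± 0.08 (SE) and an adjusted p of 0.0668 with the block. Npc2, the soluble sterol carrier that hands cholesterol to the membrane protein Npc1, lay lower in all 4 pairs, at 845, 742, 861 and 1893 CPM in controls against 719, 675, 728 and 1572 CPM. Its log2 fold change was −0.23 ± 0.40 (SE). Sphingosine, the substrate of Sphk2, is freed in the lysosome by enzymes whose genes did not pass the test. Smpd1, the acid sphingomyelinase, ranged from 47.6 to 69.0 CPM among controls and from 45.5 to 55.0 CPM among the others (log2 fold change −0.15, SE 0.14). Asah1, the acid ceramidase, was at 302 to 599 CPM and 442 to 535 CPM (0.03, SE 0.21, 95% interval −0.46 to 0.51).

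Ctss and Gpnmb, both among the most abundant members, also overlapped between the groups. Controls held 2011, 1659, 1967 and 2631 CPM of Ctss, and knockout-labelled libraries 1856, 1650, 1860 and 3554 CPM, lower in pairs 1 to 3 and higher in pair 4 (log2 fold change 0.11, SE 0.28). Gpnmb, a transmembrane glycoprotein of macrophages and osteoclasts, stood at 4709, 3632, 4843 and 6294 CPM and at 4844, 4476, 5164 and 7537 CPM, higher in all 4 pairs (0.18, SE 0.23).

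Among the 8 membrane protein genes, Scarb2, which encodes the lysosomal membrane protein LIMP-2, stood at 253, 206, 220.5 and 255 CPM in controls and 322, 269, 279 and 270 CPM in knockout-labelled libraries. The groups did not overlap, with 255 CPM as the highest control and 269 CPM as the lowest of the others. The log2 fold change was 0.29 ± 0.12 (SE), and the edgeR adjusted p was 0.9999. The exact permutation p was 0.0286, a value that the lack of overlap fixes. Laptm5, a lysosomal membrane protein of haematopoietic cells, stood at 1425, 1201, 1389 and 1310 CPM in controls and 1714, 1608, 1584 and 1318 CPM in knockout-labelled libraries. Only knockout-labelled 4 overlapped the controls, and the log2 fold change was 0.22 ± 0.14 (SE). Lamp1 was at 1896 to 2270 CPM and 2221 to 2910 CPM (0.16, SE 0.15), and Mcoln1 at 61.9 to 78.9 CPM and 56.3 to 69.7 CPM (−0.12, SE 0.12), each with overlap.

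The myeloid lysozyme gene Lyz2 gave opposite differences in the numbered pairs. It stood at 24414, 17724, 24388 and 20548 CPM in controls and 18870, 16405, 18752 and 34388 CPM in knockout-labelled libraries. The latter were lower in pairs 1 to 3 and higher in pair 4, and the log2 fold change over all was 0.02 ± 0.26 (SE). Reads of Lyz2 and its near-identical copy Lyz1 can be split by the counting, and Lyz1 averaged 9.48 CPM. Neither transcription factor gene passed the test. Tfeb stood at 38.9, 32.6, 45.2 and 40.8 CPM in controls and 36.1, 38.0, 38.9 and 40.8 CPM in the others, with a log2 fold change of −0.03 and a 95% interval of −0.32 to 0.25. Tfe3 stood at 191, 167, 177 and 176 CPM and 174, 168, 172 and 194 CPM, with −0.01 and an interval of −0.24 to 0.22.

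**Figure D2:**
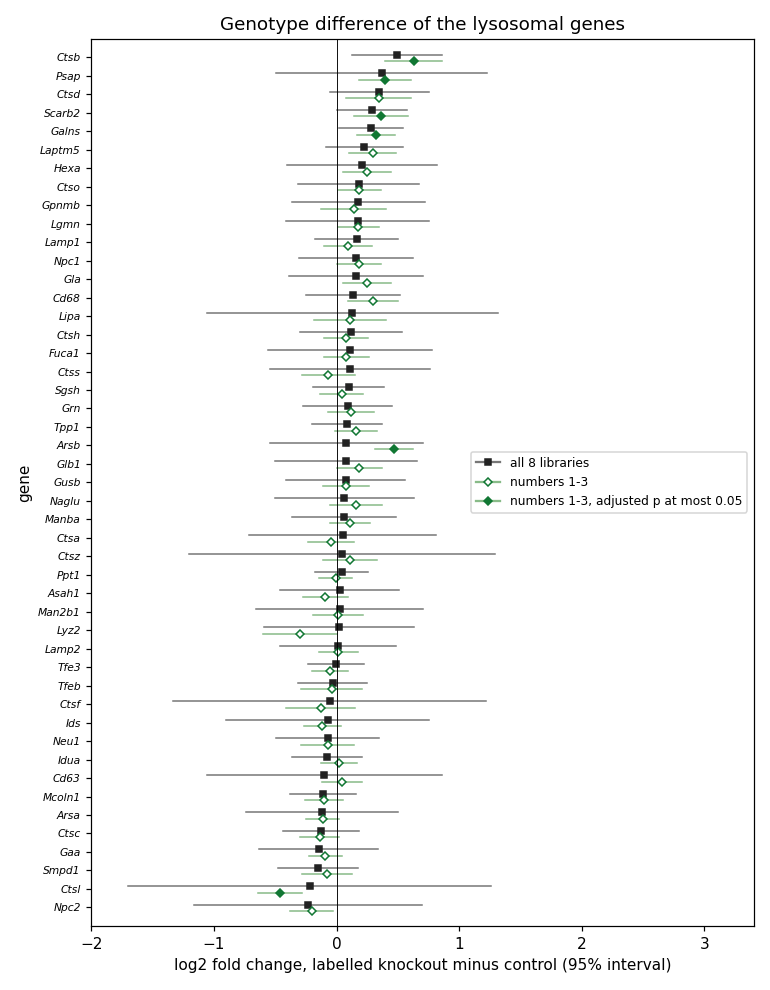
Log2 fold change of each lysosomal gene, labelled knockout minus control, with its 95% interval, from all 8 libraries (black squares) and from the 6 libraries numbered 1 to 3 (green diamonds, filled where the adjusted p is at most 0.05). With 8 libraries no gene passes, and with 6 libraries 5 pass higher (Arsb, Ctsb, Galns, Psap and Scarb2) and 1 lower (Ctsl).

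Ctsl, Ctsf, Ctsz, Lipa and Cd63 had the widest intervals with all libraries, and each stood apart in number 4. In the 6 libraries numbered 1 to 3, 5 members rose and 1 fell, where 7.78% of all genes rose and 6.29% fell. The members' shares, 10.6% and 2.13%, are read against these. With the block as well, 15 members rose (31.9%) and 3 fell (6.38%), where 12.3% and 11.9% of all genes did. Number 4 was set aside with these data known. Myeloid markers also differed between the genotypes in these 6 libraries. Of the 20 macrophage and monocyte markers 2 rose, Mrc1 (log2 fold change 0.44) and Ccr2 (0.39), and 2 fell, Itgam, an integrin of myeloid cells (−0.67), and Cd14 (−0.66). With the block 5 of the 20 rose and 4 fell, beside the 12.3% and 11.9% of all genes. Of the 7 osteoclast markers tested there 1 rose, Atp6v0d2 (0.97), and 2 fell, Dcstamp (−2.19) and Itgb3 (−0.94). Controls 1 to 3 held 2.19 to 2.54 CPM of Dcstamp, 5.92 to 8.09 CPM of Atp6v0d2 and 31.0 to 44.3 CPM of Itgb3. The part of these myeloid and osteoclast markers in the members' differences was not tested. Without knockout-labelled 1, 2 members rose, against 4.35% of all genes, and 1 fell, against 3.5%.

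Arsb, the sulfatase of dermatan and chondroitin 4-sulfate on chromosome 13 (93771630 to 93943016, plus strand), passed there with the smallest edgeR adjusted p of the members, 0.0026. Controls 1 to 3 held 61.3, 69.2 and 67.9 CPM, and knockout-labelled 1 to 3 held 95.9, 91.0 and 87.4 CPM, without overlap. Control 4 stood at 142 CPM and knockout-labelled 4 at 85.7 CPM, the opposite order. The log2 fold change was 0.47 ± 0.07 (SE) in numbers 1 to 3 and 0.08 ± 0.27 (SE) in all 8.

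Ctsb gave 0.63 ± 0.10 (SE) and an edgeR adjusted p of 0.0046 in numbers 1 to 3. Ctsl, which encodes the cysteine protease cathepsin L on chromosome 13 (64359337 to 64370890, minus strand), fell there. Controls 1 to 3 held 643, 613 and 614 CPM, knockout-labelled 1 to 3 held 421, 435 and 499 CPM, and the level was 1954 and 1932 CPM in the libraries numbered 4. In log2 this was a change of −0.46 ± 0.08 (SE) and an edgeR adjusted p of 0.0055. Arsb, Ctsb and Ctsl kept their call when any 1 of the 6 libraries was left out, with adjusted p of at most 0.0419. Galns (0.32, SE 0.07), Psap (0.39, SE 0.09) and Scarb2 (0.36, SE 0.10) did not. Galns lost it without control 3, knockout-labelled 1 or knockout-labelled 3, and Psap without any of those or without knockout-labelled 2. Scarb2 lost it without any library except control 1, with adjusted p of up to 0.158.

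A further 12 members passed in numbers 1 to 3 with the block. Laptm5 (log2 fold change 0.30), Cd68, a lysosomal glycoprotein of macrophages (0.30), and Ctsd (0.35) rose. Cd68 stood at 710, 588 and 749 CPM in controls 1 to 3 and at 842, 834 and 835 CPM in knockout-labelled 1 to 3, without overlap, while control 4 held 970 CPM and knockout-labelled 4 held 800.2 CPM. The glycosidase genes Hexa (0.25), Gla, the alpha-galactosidase (0.26), and Glb1, the beta-galactosidase (0.19), rose as well. So did Npc1 (0.18) and the peptidase genes Ctso (0.19), Lgmn (0.18) and Tpp1 (0.16). Npc2 (−0.20) and Lyz2 (−0.28) fell. Npc1 and Npc2, which act in turn on the same cholesterol, thus passed in opposite directions. Adjusted p of these 12 ran from 0.0047 for Laptm5 to 0.0481 for Tpp1 by edgeR's quasi-likelihood test, and Lyz2 was higher, not lower, in knockout-labelled 4.

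**Figure D3:**
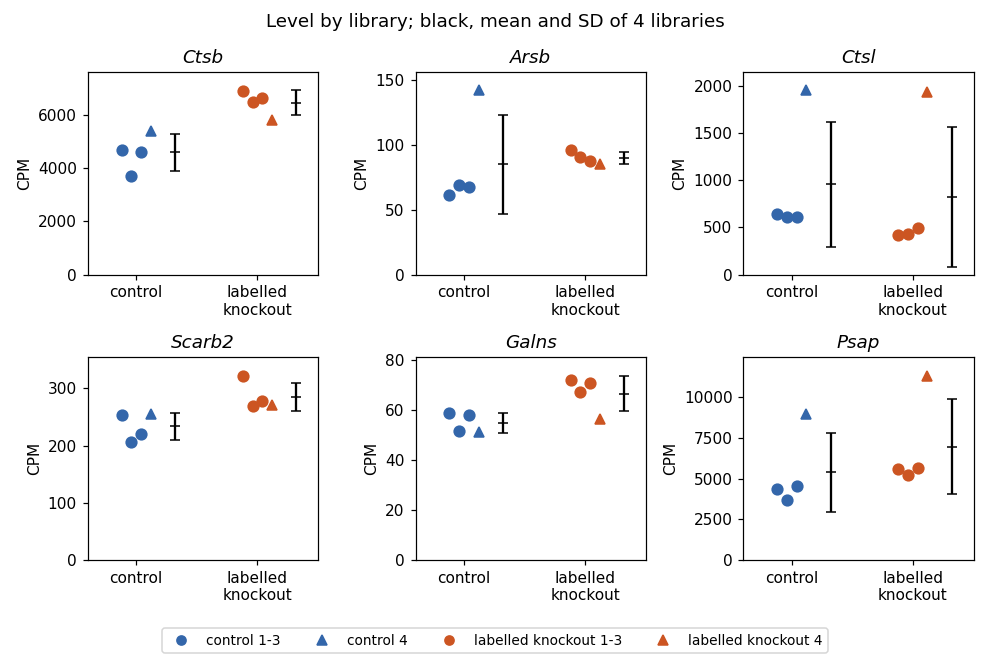
CPM of the 6 lysosomal genes that pass in numbers 1 to 3, 1 point per library, triangles for number 4, with the mean and SD of all 4 libraries of a group in black. Ctsb and Scarb2 do not overlap between groups, Arsb is separated in the circles and reversed in the triangles, and Ctsl is at 1954 and 1932 CPM in the triangles against 421 to 643 CPM in the circles.

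Pair 2 showed the most positive members, 36 of 47 (76.6%, against 49.5% of all genes), with a median difference of 0.19 in log2 CPM. Pairs 1, 3 and 4 had 26, 24 and 28 positive members, against 49.7%, 48.2% and 52.4% of all genes, and medians of 0.04, 0.01 and 0.07. In numbers 1 to 3 the members' median log2 fold change was 0.08, with 30 positive against 49.1% of all genes. Leaving control 2 out of these made it −0.003, with 23 positive against 50.6%. Control 2 had the lowest summed level of the 47 genes, 52351 CPM, against 60911 CPM or more elsewhere. It also had the lowest macrophage sum, 14951 CPM, and the highest osteoblast sum, 17301 CPM. The part of these in the pair's difference was not tested.

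Number 4 stood apart in many lysosomal genes, upwards in some and downwards in others. Of the 47 members 22 were higher in both of them than in any other library (46.8%, against 34.2% of all genes) and 9 were lower (19.1%, against 33.9%). This is a description of 1 library per genotype, with no test. The median difference of the members in log2 CPM was 0.33, against 0.02 over all genes, and their median absolute difference, 0.56, was close to the 0.58 of all genes. By role, 10 of 16 glycosidase and sulfatase genes and 7 of 12 peptidase genes were higher in number 4. Of the 7 lipid genes 2 were higher and 3 lower.

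The largest rises in level were in 3 cathepsin genes and a tetraspanin. Ctsl was 3.14 times the mean of the other controls in control 4 and 4.28 times that of the others in knockout-labelled 4. Ctsz, the carboxypeptidase cathepsin Z, was at 1222 and 1213 CPM in number 4 against 330 to 430 CPM elsewhere. Ctsf, a cysteine cathepsin, was at 71.2 and 72.4 CPM against 20.7 to 29.0 CPM. Cd63, the tetraspanin of late endosomes, was at 729 and 600 CPM against 258 to 299 CPM. Psap and Npc2 were also above all other libraries, by 2.14 and 2.06 times and by 2.32 and 2.22 times.

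Other members were lower there. Lipa, the acid lipase that frees cholesterol from its esters, was at 327 and 426 CPM in number 4 against 994 to 1402 CPM elsewhere. Ids, the iduronate sulfatase, was at 64.6 and 76.8 CPM against 155 to 184 CPM. Man2b1 was at 806 and 875 CPM against 1410 to 1722 CPM, and Lgmn, the asparaginyl endopeptidase that processes cathepsins, at 748 and 835 CPM against 1196 to 1472 CPM. Lamp2, Npc1, Ctso, Asah1 and Mcoln1 were lower as well. The lysosomal genes thus did not go one way in these libraries.

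Osteoclast markers moved with this pattern. Acp5, the osteoclast acid phosphatase, was at 3436 and 1696 CPM in number 4 against 11.9 to 22.9 CPM elsewhere, and Ctsk, the osteoclast cathepsin and no member here, at 809 and 709 CPM against 15.2 to 41.7 CPM. The summed macrophage markers, at 17696 and 18994 CPM against 14951 to 18903 CPM, were near the range of the others, but single markers moved far and in both directions. Of the 20, 7 were above and 5 below all other libraries. Cd14, the endotoxin co-receptor, was at 728 and 873 CPM against 81.1 to 166 CPM, the mannose receptor gene Mrc1 at 135 and 326 CPM against 1058 to 1586 CPM, and Cd163, the haemoglobin scavenger receptor, at 1.53 and 2.25 CPM against 43.0 to 54.3 CPM. The summed osteoblast markers were lower, at 6789 and 4402 CPM against 7862 to 17301 CPM, with 8 of 14 below all other libraries, the collagen genes among them. Spp1, the osteopontin gene, was above them, at 1854 and 1469 CPM against 527 to 1100 CPM. The part of these in the members' levels was not tested.

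**Figure D4:**
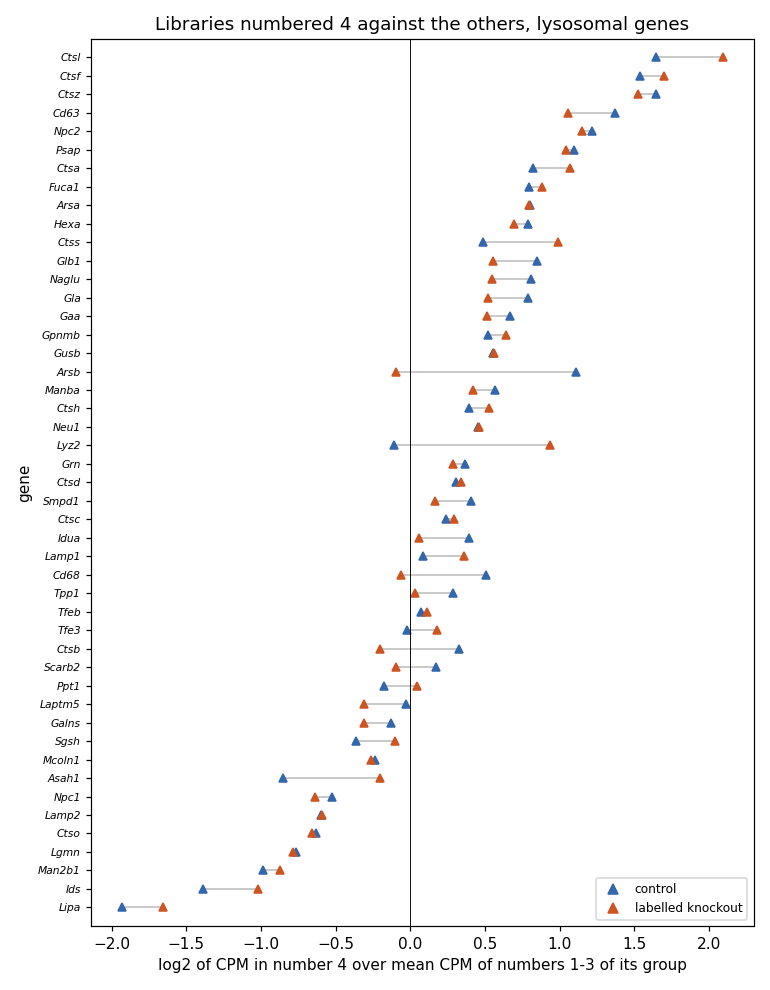
Log2 of the CPM in the library numbered 4 over the mean CPM of numbers 1 to 3 of the same group, for each lysosomal gene, control in blue and labelled knockout in orange. Ctsl, Ctsz and Ctsf lie farthest right, with ratios of 2.88 to 4.28, Lipa farthest left with 0.26 and 0.32, and Arsb, Lyz2 and Asah1 show the widest gaps between the genotypes.

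In Arsb and Lyz2 the ratio of number 4 to the other libraries differed most between the genotypes. Arsb was 2.15 times the other controls in control 4 and 0.94 times the others in knockout-labelled 4, while Lyz2 was at 0.93 and 1.91 times. Asah1, Cd68 and Ctsb also had unlike ratios, of 0.55 and 0.87, 1.42 and 0.96, and 1.25 and 0.87. The difference between such ratios rests on 1 library each and was not tested. Of the 11 members with TCACGTG in the promoter window, 6 were higher in number 4 than in all other libraries and 2 lower, and of the 31 without it 15 were higher and 5 lower. Their medians were 0.59 and 0.33 in log2 CPM for number 4 against the others, and 0.08 and 0.05 for the genotype log2 fold change.

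A second list held 49 other genes of the organelle, covering further hydrolases, membrane transporters, mannose 6-phosphate sorting, nutrient sensing on the lysosome and the relatives of Tfeb. Of these 48 were tested, 0 rose and 0 fell, 28 had a positive log2 fold change, and their median was 0.02. The smallest unadjusted p values on the higher side belonged to the amino acid transporter Slc38a9 (log2 fold change 0.35, SE 0.14), the nucleoside transporter Slc29a3 (0.31, SE 0.16) and the GTPase Rragc (0.26, SE 0.13). The lower side included Sumf1, which activates the sulfatases (−0.21, SE 0.10), and the acid nuclease Dnase2a (−0.10, SE 0.12). With the block 1 rose, Galc, the galactosylceramidase (0.31, edgeR adjusted p = 0.0487). Without pair 1, 2 or 3 the block called 0 of the list and 0 of all genes. In numbers 1 to 3 there were 5 that rose, among them Hgsnat, Slc29a3 and Rragc, and 1, Sumf1, that fell, beside 7.78% and 6.29% of all genes. Hgsnat, the acetyltransferase of heparan sulfate breakdown, ranged from 495 to 540.1 CPM among controls 1 to 3 and from 800.2 to 846 CPM among knockout-labelled 1 to 3. Control 4 held 160.5 CPM of it and knockout-labelled 4 held 89.8 CPM, the opposite order. Hgsnat and Galc were chosen after their values were seen.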

How the data were processed

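The tools listed are STAR 2.7.11b and featureCounts 2, and the builds GRCm38 and mm10, per the submitters' processing notes. The annotation and the use of strand are not given in the sources used here. The authors deposited raw counts, whole numbers for each gene symbol, with no sign of normalization in the values. Exons of 12 members overlap those of another counted gene, 11 of them on the opposite strand, whose reads may be mixed. In Ppt1 the partner Cap1, and in Ctsa the partner Pltp, are well expressed.

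From the counts, edgeR 4.0.16 (R 4.3.3) with filterByExpr, TMM factors and the robust quasi-likelihood test of genotype was fitted over all genes kept, with Benjamini-Hochberg adjustment over all of them and a threshold of 0.05. CPM divides by the TMM-scaled total, and log2 CPM adds a prior count of 2. DESeq2 1.42.0 and limma 3.58.1 were alternatives. Levels per kb used the longest APPRIS principal transcript of GENCODE M21. The code was tested on simulated data. No library pair within a group was a duplicate: chi-square over degrees of freedom was 8.56 or more.

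Same-numbered libraries correlated after removal of group means, with r of 0.460 to 0.829 (0.161 to 0.376 in numbers 1 to 3), all above 0.1. Unlike-numbered libraries gave −0.757 to 0.572 (−0.255 to −0.023 in numbers 1 to 3). Over all 8 libraries the ranges thus overlap, and the limit of 0.1 does not separate them. The best match had the same number for 6 of 8 libraries, and for 6 of 6 in numbers 1 to 3. The numbers were taken as pairs on this ground, from the data and not from a label. The members and lists were chosen with earlier results of these data known. Genes were named by a rule that takes Tfeb, Tfe3, the 6 most abundant members, the 6 per direction with the smallest p, those passing with the block, and the 4 per direction that differ most in number 4. Other members named, among them Arsb, were chosen after their values were seen. Further genes that the rule or the lists take are not reported here.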

Additional observations from a re-analysis of the deposited data

Results flagged for a closer look

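In 33 of 94 sets of 4 libraries (47 genes in each group), 1 library lay far from the other 3 by Dixon's test, which is 35.1%, where chance flags about 1 in 20. Over all genes tested the share was 24%. In 31 of the 33 (93.9%) that library was number 4, as in 95.8% of such sets over all genes. In control 4 the far values were high, in CPM, for Ctsf (71.2), Ctsl (1954), Ctsz (1222), Cd63 (729), Psap (8957), Arsa (90.6), Arsb (142) and Npc2 (1893).

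In knockout-labelled 4 they were high for the peptidase genes Ctsa (1707), Ctsf (72.4), Ctsl (1932), Ctss (3554) and Ctsz (1213). They were also high for Cd63 (599.6), Psap (11313), Npc2 (1572) and Lyz2 (34388). Among glycosidase and sulfatase genes they were high for Hexa (1350.1), Gaa (237), Gla (85.6), Gusb (593), Naglu (145), Neu1 (137), Manba (98.5), Fuca1 (272) and Arsa (83.1).

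Low values in knockout-labelled 4 were those of Lamp2 (416), Man2b1 (875), Lipa (426), Lgmn (835) and Ids (76.8). The other 2 were low values of Lamp1 in control 2 (1896) and of Tpp1 in knockout-labelled 2 (343).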

How the results depend on the processing

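Over the alternatives that kept all 8 libraries (the replicate block, other scaling factors, no filter, DESeq2 and limma-voom) and over those that left out 1 library, 0 members passed in either direction. The members passing became 5 higher and 1 lower in numbers 1 to 3, and 15 and 3 with the replicate block there. With 1 of those 6 libraries left out, and no block, they were 2 to 7 higher and 1 to 3 lower. All genes passing numbered 0, but 319 with the replicate block (0 with the block without pair 1, 2 or 3), 176 with DESeq2, 0 to 38 with 1 library left out, 1817 in numbers 1 to 3 and 3132 with the block there. In numbers 1 to 3 with no block and a further library left out, they were 1753 and 2117 without control 1 and 2, 904 without control 3, and 1027, 1034 and 838 without knockout-labelled 1, 2 and 3. Of the other lysosomal genes 1 passed with the replicate block, 0 to 1 with a library left out, 6 in numbers 1 to 3, 13 with the block there, and, in numbers 1 to 3 with no block and a further library left out, 9 and 8 without control 1 and 2, 4 without control 3, and 3 without any 1 of the others. The members' median of 0.07 ranged from −0.012 (without knockout-labelled 4) to 0.19 (without control 4) with 1 library left out. Lyz2 turned to −0.28 in numbers 1 to 3 with the block and, without the block, to −0.43 in numbers 1 to 3 without control 2, from −0.30 with it. Both of these passed. Of 47 members 18 kept their sign in all 26 settings. These settings refit the same 8 libraries or parts of them, and the share over all genes is not given here. The cause of these changes was not tested.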
